A study of Mus musculus with 39 samples.

Results

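The genes described here are 10 genes of the contractile apparatus of fast skeletal muscle fibres, followed in mouse skeletal muscle. They were chosen by name: the fast myosin heavy chains Myh1, Myh2 and Myh4, the fast light chains Myl1 and Mylpf, the fast troponins Tnnt3, Tnni2 and Tnnc2, the Z-disc protein gene Actn3 and the calcium buffer gene Pvalb. All 10 were found once each among the 24476 genes listed for muscle.

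The samples came from a study of polycystic ovary syndrome (PCOS) modelled in C57Bl6/J mice by giving letrozole, which blocks aromatase, before puberty. PCOS mice then received vehicle or roxadustat orally from 12 weeks of age for 6 weeks, and control mice given vehicle made up the remaining arm. Roxadustat blocks prolyl hydroxylases and so stabilises hypoxia-inducible factor (HIF). The series holds 39 poly-A RNA libraries of 18 mice from skeletal muscle, liver and white adipose tissue (WAT), and 12 of them are muscle, with 4 mice per arm. The control arm held mice 789, 801, 802 and 804, the PCOS vehicle arm mice 770, 773, 785 and 814, and the roxadustat arm mice 767, 782, 795 and 808. Each library was a different mouse, no mouse was in 2 arms, and the labels do not name the muscle that was taken. The muscle libraries held 14332757 to 18627919 reads. Levels are in FPKM, the authors' fragment counts divided by gene length and by a size that the authors set for each library. That size was 0.697 to 0.864 of the library's reads in muscle and 1.26 to 1.59 of them in WAT. Comparisons between libraries therefore rest on the authors' scaling. In a tissue sample, fewer fibres of a type and less RNA per fibre cannot be told apart.

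A fast fibre is named after the myosin heavy chain it uses. In mice Myh2 encodes the IIa chain of the fast fibres with the most oxidative metabolism, Myh1 the IIx chain, and Myh4 the IIb chain of the fastest and most glycolytic fibres. The heavy chain carries the motor, the light chains Myl1 and Mylpf stiffen its lever arm, and the troponin complex on the thin filament switches contraction on when its C subunit binds calcium. Slow fibres use a separate set of genes for the same parts, among them Myh7, Tnni1 and Tnnc1.

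The 3 heavy chain genes lie side by side on chromosome 11, plus strand. In mm39, the build of the deposited tables, Myh2 (ENSMUSG00000033196) spans chr11:67061853-67088343, Myh1 (ENSMUSG00000056328) chr11:67090878-67115401 and Myh4 (ENSMUSG00000057003) chr11:67128855-67151272. The gap from Myh2 to Myh1 is 2534 bases and that from Myh1 to Myh4 is 13453 bases. The developmental chain genes flank them, Myh3 at 68735 bases before Myh2 and Myh8 at 16677 bases after Myh4. The coding sequences, taken from GENCODE transcripts on GRCm38, are 91.09% identical between Myh1 and Myh2, 90.22% between Myh1 and Myh4 and 88.19% between Myh2 and Myh4. Because reads are assigned to a gene by sequence, the share of windows that 2 genes hold in common limits how well they can be told apart. Of all 50-base windows of the Myh1 coding sequence, 20.5% also occur in Myh2 and 10.99% in Myh4, and at 100 bases these shares are 7.91% and 2.32%. Of the 50-base windows of Myh2, 10.4% occur in Myh4. How the authors' counting treated such reads is not given in the sources used here, so each level of the 3 genes carries this uncertainty.

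The stretch of 60 coding bases where the 3 genes differ most is shown, since reads over it do separate them. Capitals mark the bases that are not the same in all 3, and 36 of the 60 are the same. The stretch lies in exon 29 of Myh1 and Myh2 and exon 27 of Myh4, all on GRCm38.
Myh2, chr11:67191348-67191407: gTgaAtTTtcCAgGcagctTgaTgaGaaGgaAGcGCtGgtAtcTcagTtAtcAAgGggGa
Myh1, chr11:67217464-67217523: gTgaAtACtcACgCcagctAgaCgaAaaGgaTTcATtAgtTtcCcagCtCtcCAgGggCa
Myh4, chr11:67254458-67254517: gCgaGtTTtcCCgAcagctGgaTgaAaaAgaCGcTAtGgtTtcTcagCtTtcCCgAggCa

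The windows at the 5′ starts of the 3 genes are shown as well, and their part in the levels of the 3 genes was not tested. Each runs from 250 bases before to 50 bases after the gene's start in RefSeq on GRCm38.p6, plus strand. Capitals mark TATAAA and a run of 20 bases, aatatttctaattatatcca, that all 3 windows hold.
Myh2, chr11:67170777-67171076: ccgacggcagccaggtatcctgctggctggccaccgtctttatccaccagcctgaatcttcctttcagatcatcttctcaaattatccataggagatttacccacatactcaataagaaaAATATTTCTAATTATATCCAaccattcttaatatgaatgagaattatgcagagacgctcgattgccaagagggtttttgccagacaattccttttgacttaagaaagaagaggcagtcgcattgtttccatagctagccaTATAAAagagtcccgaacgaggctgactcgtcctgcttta
Myh1, chr11:67199852-67200151: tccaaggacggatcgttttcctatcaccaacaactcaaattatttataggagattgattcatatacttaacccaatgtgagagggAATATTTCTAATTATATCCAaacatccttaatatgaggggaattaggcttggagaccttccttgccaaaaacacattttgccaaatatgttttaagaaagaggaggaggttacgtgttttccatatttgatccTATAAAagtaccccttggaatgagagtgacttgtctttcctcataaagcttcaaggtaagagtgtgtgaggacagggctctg
Myh4, chr11:67237562-67237861: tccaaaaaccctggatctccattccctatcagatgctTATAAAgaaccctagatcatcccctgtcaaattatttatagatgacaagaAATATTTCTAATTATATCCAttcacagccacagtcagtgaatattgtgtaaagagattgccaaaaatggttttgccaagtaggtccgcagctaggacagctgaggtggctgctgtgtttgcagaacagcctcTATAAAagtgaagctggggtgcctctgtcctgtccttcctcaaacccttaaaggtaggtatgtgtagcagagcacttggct

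The run of 20 bases was found in 3 of the 32851 RefSeq windows of this length, which are these 3. It lies 120 bases before TATAAA in Myh2, 113 bases before it in Myh1 and 112 bases before the second TATAAA in Myh4. In Myh1 and Myh4 that TATAAA begins 32 and 31 bases before the annotated start. In Myh2 it begins 10 bases after the annotated start. RefSeq windows were found for 7 of the 10 genes, and those of Tnnt3, Tnni2 and Actn3 were not used here. TATAAA, searched on both strands, was in the windows of 4 of the 7 genes and in 13.6% of all windows. CANNTG, the E-box letters, was in those of 5 of the 7 and in 72.3% of all windows. CATTCC, the MCAT letters, was in 3 of the 7 and in 14.7% of all, and one form of the MEF2 site was in 0 of the 7 and in 3.69% of all. These motifs can overlap each other, and a match is a description of letters.

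Of the 10 genes, 7 were among the 17 most abundant transcripts of the tissue, and Tnnc2 was barely detected. By mean over the 12 muscle libraries the order was Myh4 with 14473 FPKM, Pvalb with 13159, Tnnt3 with 12352, Mylpf with 9027, Tnni2 with 6414, Actn3 with 6385, Myl1 with 5487, Myh1 with 774, Myh2 with 172 and Tnnc2 with 1.35. Neighbours in this order did not always keep their places within a library. Myh4 exceeded Pvalb in 8 of 12 libraries, Pvalb exceeded Tnnt3 in 7, Tnni2 exceeded Actn3 in 7 and Actn3 exceeded Myl1 in 10. The other neighbouring pairs kept their order in all 12. Among the 24476 genes listed, Myh4 was the 5th most abundant by mean FPKM, Pvalb 7th, Tnnt3 9th, Mylpf 11th, Tnni2 15th, Actn3 16th and Myl1 17th, while Myh1 was 54th, Myh2 224th and Tnnc2 9739th. The 10 genes took 12.1 to 15.4% of all reads in a library. Other defining genes of skeletal muscle were as abundant: Acta1, skeletal actin, ranged from 23194 to 46601 FPKM and Ckm, muscle creatine kinase, from 4170 to 6609.

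**Figure D1:**
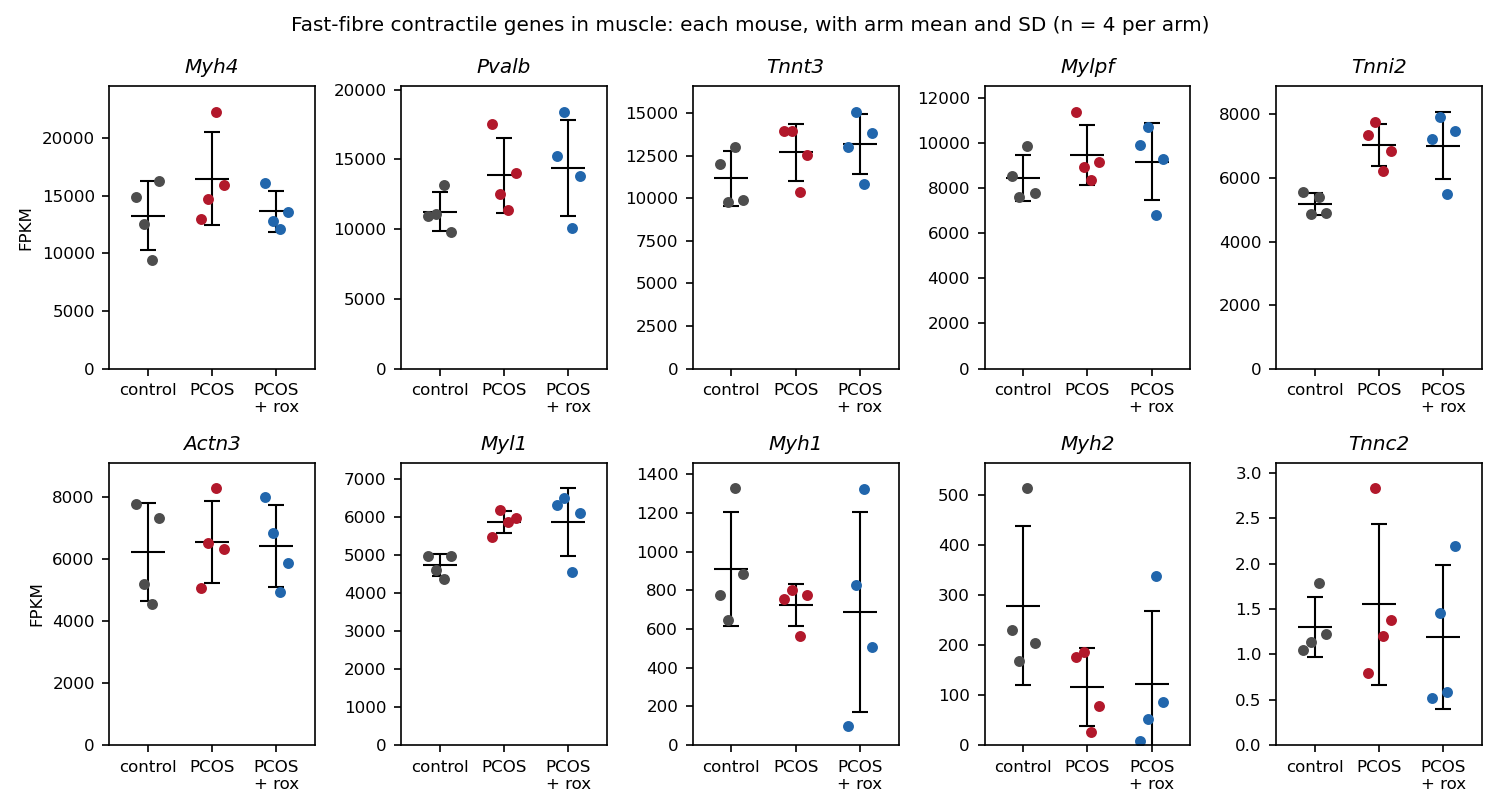
FPKM of each of the 10 genes in the 12 muscle libraries, 1 panel per gene and 1 point per mouse, with the arm mean and SD (n = 4 per arm) as a bar with whiskers and every axis starting at 0. In Tnni2 and Myl1 the 4 control points lie below the 4 PCOS vehicle points, and in the other 8 genes the arms overlap.

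Myh4, the IIb heavy chain, was the main heavy chain in every muscle library. In order of mouse number it measured 14889, 12504, 9447 and 16272 FPKM in control mice, 13001, 14749, 22288 and 15911 FPKM in PCOS vehicle mice and 16133, 12778, 12084 and 13621 FPKM in roxadustat mice. The lowest value was that of control mouse 802 and the highest that of PCOS vehicle mouse 785, and the arms overlapped. Myh4 made up 83.7 to 99.3% of the summed FPKM of Myh1, Myh2 and Myh4.

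Myh1, the IIx heavy chain, measured 778, 646, 1328 and 885 FPKM in control mice, 756, 803, 564 and 773 FPKM in PCOS vehicle mice and 100.5, 825, 1324 and 507 FPKM in roxadustat mice. Roxadustat mouse 767 stood far below the rest, and control mouse 802 and roxadustat mouse 795 stood above the others. Within PCOS vehicle the highest value was 1.42 times the lowest, and within roxadustat 13.2 times.

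Myh2, the IIa heavy chain, varied most between mice among the heavy chains. It measured 231, 168, 514 and 204 FPKM in control mice, 177, 185, 25.1 and 77.6 FPKM in PCOS vehicle mice and 8.57, 52.1, 337 and 86.7 FPKM in roxadustat mice. The highest library held 60.01 times the lowest, control mouse 802 against roxadustat mouse 767, and the arms overlapped. These values rest on many reads, 732 in mouse 767 and 51256 in mouse 802, so the sampling error of counting is small beside the spread between mice. This does not cover reads assigned to the wrong heavy chain gene. In mouse 767 Myh4 had 1161880 reads, and 10.4% of the 50-base windows of Myh2 occur in Myh4. The part of such reads in the lowest Myh2 values was not tested.

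Expressed as shares of the 3 fast heavy chains, 3 of the 4 control mice were nearly alike, with Myh4 at 93.7, 93.9 and 93.7%, and control mouse 802 had 83.7% Myh4, 11.8% Myh1 and 4.55% Myh2. In PCOS vehicle the Myh4 share was 93.3, 93.7, 97.4 and 94.9%, with the highest in mouse 785, where Myh2 was 0.110% of the total. In roxadustat it was 99.3, 93.6, 87.9 and 95.8%, the widest range of the 3 arms, from mouse 795 to mouse 767. The mean Myh4 share was 91.2% ± 5.04 (SD, n = 4) in control, 94.8% ± 1.85 in PCOS vehicle and 94.2% ± 4.79 in roxadustat, so the means lie closer than the mice within an arm. The mean Myh2 share was 2.11% ± 1.63 in control, 0.755% ± 0.561 in PCOS vehicle and 0.875% ± 1.08 in roxadustat. The slow chain gene Myh7 and the developmental chain genes Myh3 and Myh8 together came to 0.00821 to 0.122% beside these 3.

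**Figure D2:**
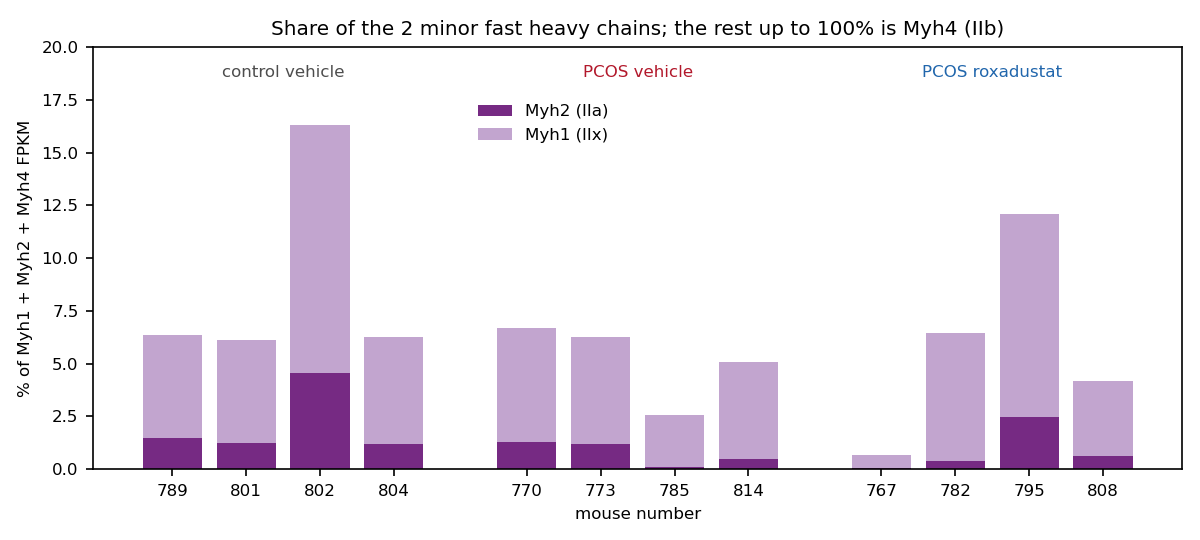
Share of Myh2 (dark) and Myh1 (light) in the summed FPKM of Myh1, Myh2 and Myh4, as stacked bars per muscle library by mouse number and arm; the axis is percent, starts at 0 and ends at 20, and the rest of each library up to 100% is Myh4. Control mouse 802 and roxadustat mouse 795 have the tallest bars and roxadustat mouse 767 the shortest.

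Myl1 encodes the essential light chains of fast fibres and Mylpf the regulatory light chain that is phosphorylated in them. Myl1 (ENSMUSG00000061816, chr1:66963454-66984563, minus strand, mm39) measured 4966, 4604, 4369 and 4962 FPKM in control mice, 5479, 6170, 5874 and 5977 FPKM in PCOS vehicle mice and 6305, 6496, 4546 and 6098 FPKM in roxadustat mice. The control and PCOS vehicle mice did not overlap, and roxadustat mouse 795 lay among the controls while the other 3 lay within or above the PCOS vehicle range. Mylpf (ENSMUSG00000030672, chr7:126808062-126813470, plus strand) measured 8516, 7608, 9882 and 7795 FPKM in control mice, 11385, 8952, 8355 and 9139 FPKM in PCOS vehicle mice and 9929, 10686, 6785 and 9296 FPKM in roxadustat mice. Its arms overlapped, and the lowest value was that of roxadustat mouse 795.

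Tnnt3 encodes fast troponin T, which anchors the troponin complex to tropomyosin, and Tnni2 encodes fast troponin I, the inhibitory subunit. The genes lie 54425 bases apart on chromosome 7, Tnni2 (ENSMUSG00000031097) at chr7:141995545-141998147 and Tnnt3 (ENSMUSG00000061723) at chr7:142052573-142069746, both on the plus strand of mm39. Tnni2 measured 5559, 4861, 5410 and 4901 FPKM in control mice, 7346, 7749, 6213 and 6840 FPKM in PCOS vehicle mice and 7213, 7922, 5487 and 7470 FPKM in roxadustat mice. All 4 PCOS vehicle mice lay above all 4 control mice, and roxadustat mouse 795 lay within the control range. Tnnt3 measured 11997, 9775, 12993 and 9883 FPKM in control mice, 13934, 13951, 10389 and 12536 FPKM in PCOS vehicle mice and 12990, 15082, 10857 and 13836 FPKM in roxadustat mice, with overlapping arms.

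Tnnc2, which encodes the calcium-binding troponin C of fast fibres, was the exception in level. It measured 1.05, 1.14, 1.79 and 1.23 FPKM in control mice, 0.796, 2.83, 1.2 and 1.38 FPKM in PCOS vehicle mice and 0.522, 1.46, 0.589 and 2.19 FPKM in roxadustat mice, resting on 5 to 24 reads per library. Its mean was 1.35 FPKM, against 6414 FPKM for its partner subunit gene Tnni2. In GENCODE on GRCm38, 592 of the 800 exon bases of Tnnc2 (74%; ENSMUSG00000017300, chr2:164619081-164621887, minus strand in mm39) also belong to exons of Ube2c on the opposite strand. Ube2c, a ubiquitin-conjugating enzyme gene of dividing cells, measured 1.25 to 4.02 FPKM in these libraries. The labels describe both a strand-specific and a non-specific library preparation without saying which was used, so reads of the 2 genes cannot be told apart here, and the part of this overlap in the low level of Tnnc2 was not tested. Smaller overlaps with opposite-strand genes were found for Myh1, 8.11% of its exon bases with Myhas, and for Myh2, 3.32% with 9430073C21Rik, and for the other 7 genes the overlap was 0.

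Actn3 encodes alpha-actinin-3, which crosslinks actin at the Z-disc of fast fibres, and Pvalb encodes parvalbumin, the calcium buffer that speeds their relaxation. Actn3 (ENSMUSG00000006457, chr19:4911244-4927937, minus strand, mm39) measured 7765, 5198, 4548 and 7316 FPKM in control mice, 5073, 6514, 8273 and 6329 FPKM in PCOS vehicle mice and 8005, 6818, 4936 and 5850 FPKM in roxadustat mice. Pvalb (ENSMUSG00000005716, chr15:78075314-78090600, minus strand) measured 10913, 11078, 13166 and 9803 FPKM in control mice, 17565, 12487, 11347 and 14017 FPKM in PCOS vehicle mice and 15213, 18422, 10090 and 13804 FPKM in roxadustat mice. For both genes the arms overlapped, and the range within each arm was wider than the distance between any 2 arm means.

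The first comparison asked what the PCOS model changed under vehicle. In the limma fit across all 13438 genes tested, 0 of the 10 genes passed an adjusted p of 0.05 (Benjamini-Hochberg over all genes tested, two-sided), against 0.104% of all genes tested, and 2 of the 10 had an unadjusted p under 0.05 against 849 of all genes. A fit with voom on recovered reads also called 0 of the 10. By estimate 8 of the 10 were higher and 2 lower, with a median log2 difference of 0.17, where the median over all genes tested was -0.01 and 48.1% of genes were higher. The 43 genes with a mean over 1000 FPKM, 7 of the 10 among them, had a median of 0.19, close to that of the 10.

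Tnni2 and Myl1 were 2 of the 10 whose arms did not overlap, where 3.78% of all genes tested had such arms. Mean Tnni2 was 5183 ± 354 FPKM (SD, n = 4) in control and 7037 ± 664 in PCOS vehicle, a log2 difference of 0.44 (SE 0.157, 95% interval 0.0895 to 0.788), with a limma adjusted p of 0.647. In the authors' deposited table Tnni2 had a log2 fold change of 0.449 with an adjusted p of 0.0290. It was the only one of the 10 to pass there, where 0.391% of the 23509 genes with a p-value did. Mean Myl1 was 4725 ± 292 FPKM in control and 5875 ± 291 in PCOS vehicle, a log2 difference of 0.31 (SE 0.147) with a limma adjusted p of 0.804, and its adjusted p in the authors' deposited table was 0.111. Myl1 had one of the smallest spreads between mice of all genes, with a residual SD of 0.0817 on the log2 scale against a median of 0.207, and limma's SE draws each gene's spread towards that of genes of like level.

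Myh2 had the largest difference by estimate of the 10, a mean of 279 ± 159 FPKM in control against 116 ± 78.0 in PCOS vehicle. The log2 difference was -1.49 (SE 0.585, 95% interval -2.79 to -0.19), with a limma unadjusted p of 0.0284 and an adjusted p of 0.699. Its residual SD of 1.07 was larger than that of 99.6% of genes tested. Myh1 gave -0.29 (SE 0.217) and Myh4 0.31 (SE 0.249), so the 3 heavy chains had estimates of both signs and 95% intervals that include 0 for Myh1 and Myh4.

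The second comparison asked what roxadustat changed in PCOS mice. limma called 0 of the 10 and 0 of all 13296 genes tested, 0% of them, although 320 genes had an unadjusted p under 0.05, and 0 of the 10 did. The authors' deposited table called 0 of the 10 and 0% of its 23145 genes with a p-value, and voom called 0 of the 10. None of the 10 had arms that did not overlap, where 1.61% of all genes tested did. By limma estimate 2 were higher and 8 lower, with a median log2 difference of -0.04 against -0.0004 over all genes. Scaling to total reads in place of the authors' scaling turned Myl1, Tnni2 and Actn3 to higher. In the authors' deposited table Myh2 (log2 fold change 0.067), Myl1 (0.0045) and Tnni2 (0.0042) were higher, and the other genes had the sign of the limma fit. The split into higher and lower is thus not firm. Without roxadustat mouse 795 the median of the 10 was 0.08.

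The precision of this comparison differed widely between the genes. For Tnni2 the means were 7037 ± 664 and 7023 ± 1065 FPKM and the log2 difference was -0.01, with a 95% interval from -0.50 to 0.48. For Myl1 the difference was -0.02, with an interval from -0.48 to 0.45. For Myh1 it was -0.56, with an interval from -1.98 to 0.86, and for Myh2 -0.56, from -2.74 to 1.62, so with 4 mice per arm a level several fold lower for both genes, or several fold higher for Myh2, lies within the interval. Mean Myh2 was 116 ± 78.0 FPKM in PCOS vehicle and 121 ± 148 in roxadustat, slightly higher, where the fit on the log2 scale gave a lower level. Without roxadustat mouse 767 the estimates turned to 0.20 for Myh1 and 0.36 for Myh2.

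The last comparison set roxadustat-treated PCOS mice against control mice. limma called 0 of the 10, where 0.349% of the 13468 genes tested were called, and voom called 0 of the 10. The arms of all 10 overlapped, where 6.24% of all genes tested had arms that did not. By estimate 7 were higher and 3 lower, with a median of 0.08 against -0.01 over all genes. Tnni2 had a log2 difference of 0.43 (SE 0.202, limma adjusted p 0.460), and Myl1 0.30 (SE 0.197, limma adjusted p 0.587). Myh2 had -2.05 (SE 0.869, 95% interval -3.97 to -0.12, limma unadjusted p 0.0394 and adjusted p 0.417). It was the only one of the 10 with a limma unadjusted p under 0.05, against 1527 of all 13468 genes tested. This comparison shares its control libraries with the first and its roxadustat libraries with the second.

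**Figure D3:**
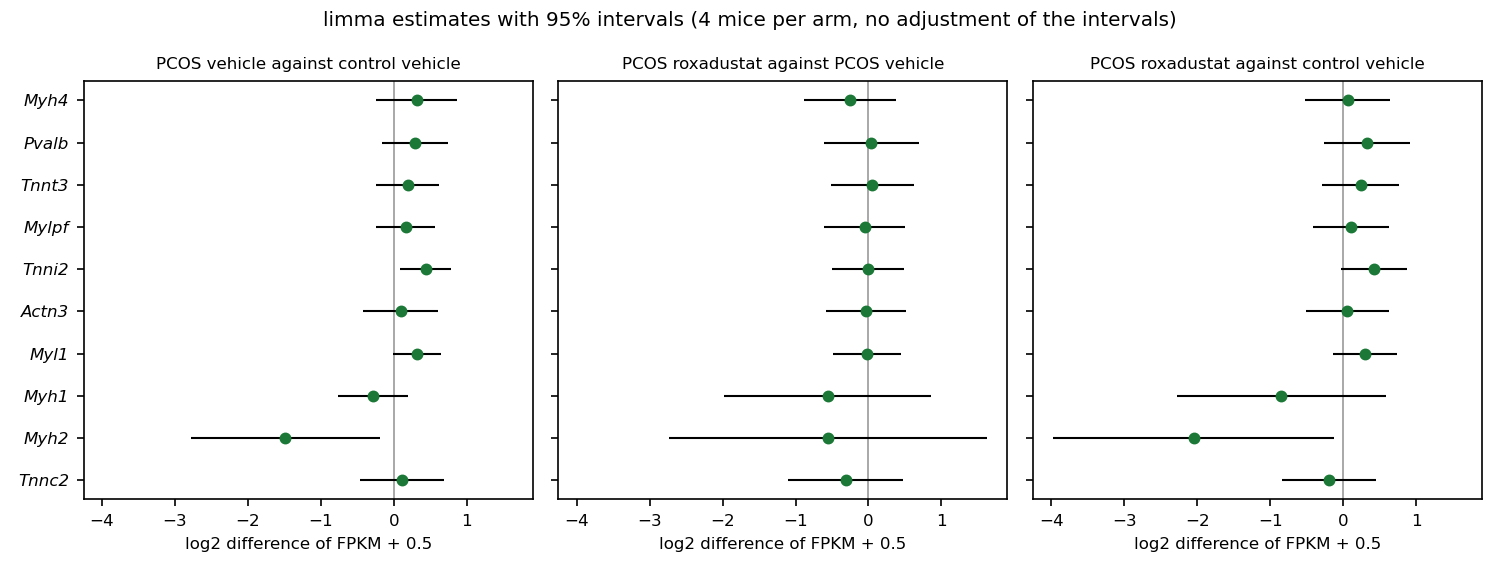
limma estimates of the log2 difference of FPKM + 0.5 for the 10 genes in the 3 comparisons (4 mice per arm), with lines for the 95% interval, not adjusted for the number of genes. The interval of Myh2 is the widest in each panel, and only that of Myh2 in both comparisons with control and that of Tnni2 in the first panel leave out 0.

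The 10 genes did not move as 1 block between mice. Over the 12 libraries the 45 pairs had Pearson r of log2(FPKM + 0.5) from -0.75 to 0.92 with a median of 0.04, and 21 of them were below 0. These values describe 12 libraries that share the authors' scaling and the mouse's whole tissue sample, and the groupings named here were chosen after the values were seen. Mylpf and Pvalb had the highest r, 0.92 (Spearman rho 0.92), which was 0.95 with arm means removed and 0.92 without the 2 libraries farthest from the median of Mylpf. Tnnt3 and Tnni2 had 0.85 (rho 0.87, 0.73 without the 2 farthest), Myl1 and Tnni2 0.88 (rho 0.87, 0.91 without), and Tnnt3 and Pvalb 0.84 (rho 0.76, 0.80 without). With arm means removed these r were 0.90, 0.72 and 0.78. The light chains, Tnnt3, Tnni2 and Pvalb thus had mutual r between 0.53 and 0.92. With arm means removed the range was 0.38 to 0.95, and r of Myl1 was lower with each of the other genes of this group.

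Myh4 went with Actn3 instead, at r 0.84 (rho 0.86, 0.79 without the 2 libraries farthest from the median of Myh4). Myh4 had r between -0.31 and 0.15 with Mylpf, Tnnt3, Tnni2 and Pvalb, and 0.51 with Myl1. Genes of the first group have 1041 to 2074 bases in the authors' gene length, and Actn3 has 2901 and Myh4 6016. Tnnc2, the shortest of the 10 with 800 bases, had r of 0.04 to 0.34 with the genes of the first group. The part of gene length in these correlations was not tested. Myh1 and Myh2 formed a pair of their own, with r 0.85 (rho 0.76), and 0.62 without mice 767 and 802. Both had negative r with Myh4, -0.43 for Myh1 and -0.64 for Myh2, and Myh2 had its lowest r, -0.75, with Myl1. The lncRNA gene 9430073C21Rik, on the opposite strand between Myh2 and Myh1 and overlapping the end of Myh2, measured 0.154 to 10.2 FPKM and had r 0.97 with Myh2 (rho 0.87, 0.93 without the 2 farthest). Its levels rest on 4 to 311 reads per library, and 237 exon bases of Myh2 are shared with it. Because the strand setting is not given, reads over the shared bases cannot be told apart, and their part in this r was not tested. For Myhas, which overlaps Myh1, r with Myh1 was -0.37. Tnnc2 and Ube2c, which share exon bases, had r 0.58 (rho 0.50).

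**Figure D4:**
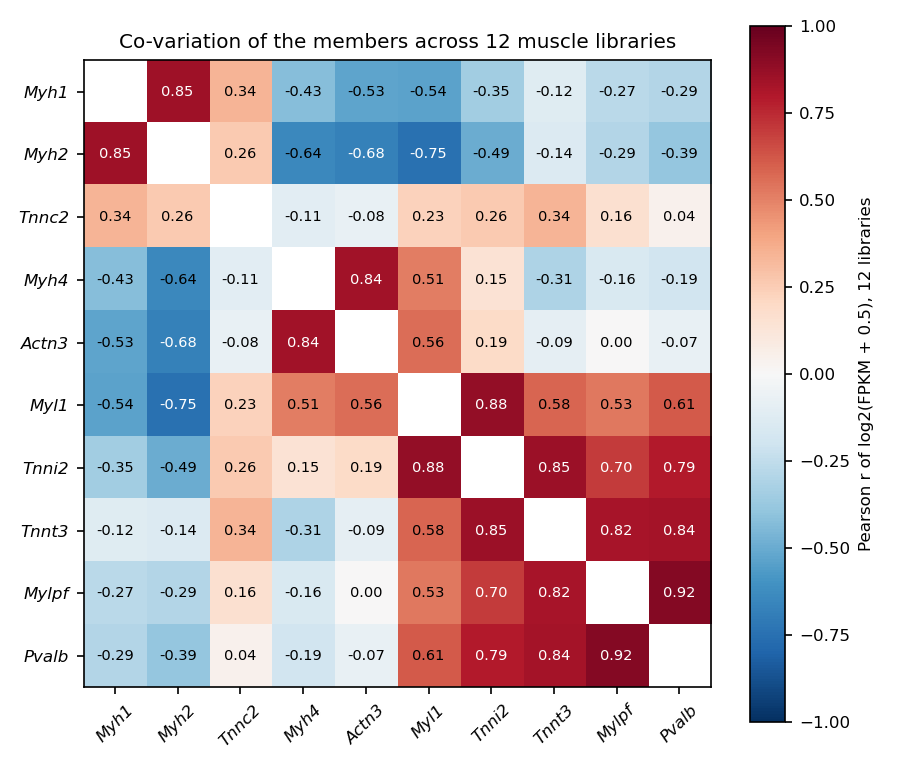
Pearson r of log2(FPKM + 0.5) for each pair of the 10 genes across the 12 muscle libraries, with the value in each cell and a colour scale from -1 to 1. Red cells join Myh1 with Myh2, Myh4 with Actn3, and Myl1, Tnni2, Tnnt3, Mylpf and Pvalb with each other, and blue cells set Myh1 and Myh2 apart from Myh4, Actn3 and Myl1.

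**Figure D5:**
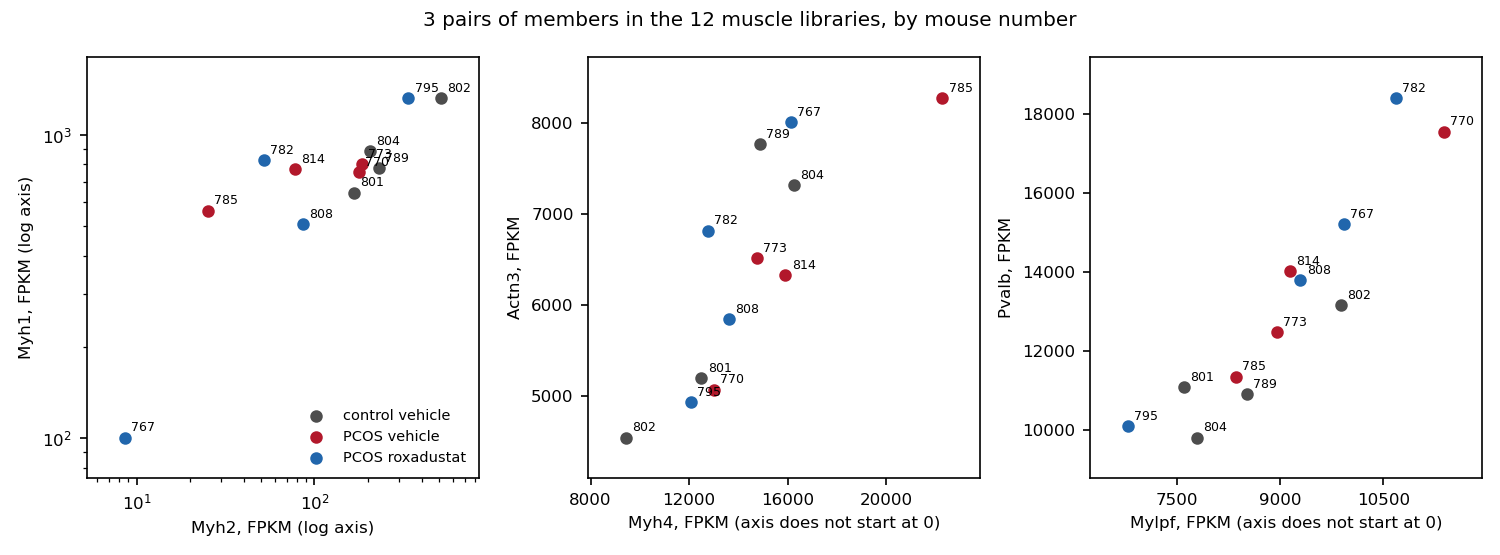
3 pairs of the 10 genes in FPKM, 1 point per muscle library labelled by mouse number and coloured by arm; the first panel has log axes and the other 2 have linear axes that do not start at 0. Mouse 767 is lowest for both Myh2 and Myh1, mouse 785 is highest for both Myh4 and Actn3, and the arms are mixed along each pair.

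Among 11818 protein-coding genes tested in all 3 comparisons and not among the 10, those most like Myh2 over the 12 libraries were Myom3 (r 0.98), Csrp3 (0.97), Myoz2 (0.97), Klhl34 (0.96) and Smtnl1 (0.96). Myom3 is an M-band protein gene, Csrp3 encodes muscle LIM protein and Myoz2 a Z-disc protein, and all 3 were lower in level than Myh2, with means of 3.72, 11.04 and 7.84 FPKM. Those most like Myh4 were 5031439G07Rik (r 0.96), Rasd2 (0.94), Mybpc2 (0.92), the fast myosin-binding protein C gene, Zfyve9 (0.91) and Maf (0.91), a transcription factor gene. Most like the mean of the standardised levels of the 10 were Rpl22l1 (r 0.89), Lin37 (0.88), Borcs8 (0.87), Gm2000 (0.86) and Myoz1 (0.86), of which Myoz1 alone is a sarcomere gene, with a mean of 1457 FPKM. The highest of many correlations over 12 libraries are high in part because they were chosen as the highest.

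The slow-fibre counterparts were set beside these genes as 12 fixed genes. Their summed level was small, 44.7 to 184 FPKM in control, 26.0 to 246 in PCOS vehicle and 17.7 to 60.3 in roxadustat. The 10 fast genes summed to 56442 to 65614 FPKM in control, 71564 to 74716 in PCOS vehicle and 56446 to 79083 in roxadustat. The fast sums of control and PCOS vehicle did not overlap, and no test was run on these sums. They rest on the authors' scaling. As shares of all reads the 10 genes took 12.2 to 13.5252% in control and 13.5265 to 15.4% in PCOS vehicle, ranges that nearly met. Control mouse 802 and PCOS vehicle mouse 773 had the highest slow-fibre sums, and roxadustat mouse 767, lowest for Myh1 and Myh2, also had the lowest. None of the 12 passed the test in any of the 3 comparisons. In roxadustat against PCOS vehicle 11 of the 12 were lower by estimate with a median log2 difference of -1.03, and in roxadustat against control 11 of 12 with a median of -0.81. In PCOS vehicle against control 7 were higher and 5 lower by estimate with a median of 0.08. These values rest on few mice. Without PCOS vehicle mouse 773 all 12 were lower by estimate in PCOS vehicle against control, with a median of -0.29, and the median in roxadustat against PCOS vehicle was -0.43. Without control mouse 802 the median in roxadustat against control was also -0.43. In roxadustat against PCOS vehicle the slow gene with the lowest p was Myl3, a slow essential light chain gene, at -2.77 (SE 1.02, limma adjusted p 0.99995). In roxadustat against control it was Myl2, the slow regulatory light chain gene, at -3.14 (SE 0.668, limma adjusted p 0.126). Myh7 averaged 0.945 ± 0.946 FPKM in control, 4.82 ± 8.35 in PCOS vehicle and 0.160 ± 0.259 in roxadustat, where the PCOS vehicle mean rests on the 17.3 FPKM of mouse 773. Tnni1, slow troponin I, averaged 0.838 ± 0.995, 2.90 ± 4.20 and 0.299 ± 0.382 FPKM. Both genes are listed at 0 in roxadustat mouse 767.

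Of the wider muscle lists, the 14 genes of fast glycolytic metabolism were measured as 15 entries, of which 14 were higher by estimate in PCOS vehicle than in control, 0 called, with a median of 0.18. The entries with the lowest p were Pgam2, muscle phosphoglycerate mutase, at 0.37 (SE 0.148, limma adjusted p 0.711) and Pkm, pyruvate kinase, at 0.29 (SE 0.129, limma adjusted p 0.773). In roxadustat against control 14 of 15 were higher and 1 was called: Gapdh rose from 9.74 ± 1.81 to 182 ± 41.9 FPKM (log2 difference 4.14, limma adjusted p 5.86e-06). Gapdh measured 7.40, 10.3 and 13.5 FPKM in 3 of the PCOS vehicle mice and 227 FPKM in mouse 770. The gene has many near-identical pseudogene copies, so its count is uncertain, and their part in these values was not tested. Of 22 shared sarcomere genes, 10 were higher and 12 lower in PCOS vehicle against control, 0 called. Among these, the Z-disc gene Myoz1 gave 0.47 (SE 0.140, limma adjusted p 0.504) and Mybpc1, the slow-type myosin-binding protein C gene, -0.67 (SE 0.228, limma adjusted p 0.626). Of 16 calcium release and uptake genes tested, 12 were higher and 4 lower with a median of 0.06, 0 called, and Atp2a1, the calcium pump of fast fibres, gave -0.07 (SE 0.235). Of 29 fibre-type regulators 18 were higher and 11 lower, 0 called, and Vgll2, a skeletal muscle transcription cofactor gene, had the lowest p, at -0.80 (SE 0.182, limma adjusted p 0.253). Of 7 developmental and cardiac sarcomere genes tested, 6 were lower with a median of -0.29, 0 called. In roxadustat against PCOS vehicle 0 genes of these lists were called.

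Markers of other cell types were lists of 5 to 12 genes, 0 of which were called in any comparison. Against control, 11 of 12 adipocyte markers were lower by estimate in PCOS vehicle, where their summed level was 225 to 303 FPKM against 283 to 570 in control and 199.7 to 320 in roxadustat. All 5 blood cell markers were higher, with sums of 437 to 1200 FPKM against 204 to 588 in control and 331 to 573 in roxadustat. For endothelial markers 5 of 8 were lower, for macrophage markers 6 of 7, for fibroblast and tendon markers 6 of 9, for satellite cell and regeneration markers 6 of 8, and for nerve and Schwann cell markers 3 of 6. No marker was at 0 in all libraries of an arm, and the part of these cells in the differences of the 10 genes was not tested.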

How the data were processed

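Muscle tables for 2 pairs of arms were used, with 23580 and 23221 genes, of which 22325 are in both; the PCOS vehicle columns were identical in them. Per the submitters' processing notes the authors used CASAVA 1.8, HISAT2 2.0.5 on mm39 and DESeq2 1.20.0; the counting tool, the annotation release and the strand setting are not given in the sources used here. Per the labels' protocols, poly-A RNA was made into libraries from 300 ng of total RNA. Per the file headers, expression is FPKM computed by the authors, with gene length in bases, and the authors' log2 fold change, p-value and adjusted p-value stand beside it. All columns of per-sample values matched a sample.

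Every value (100%) times its gene length was a whole multiple of the library's smallest one, within 0.001, which gave the reads behind it. Since the tables hold FPKM, limma 3.58.1 (R 4.3.3) with a trend was fitted to log2(FPKM + 0.5), each pair of arms alone, over genes with 10 reads, scaled to depth, in at least 4 libraries and 15 in total. A fold on this scale understates the change of low genes. Two-sided p-values of all genes tested were adjusted together (Benjamini-Hochberg), and genes were called under 0.05. The fit was tested on simulated data. A level of 0 allows up to 3 reads, which covers counting error only. Alternatives were other pseudocounts, filters and scalings, voom, 1 fit of all arms and leaving out mice. Coding sequences were aligned with MAFFT 7.526; promoter windows came from RefSeq on GRCm38.p6 and coding sequences and exon overlaps from GENCODE on GRCm38, whose summed exon lengths equal the deposited lengths.

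The 10 genes, the gene lists and the tests were chosen with earlier results of these data known. From each list, called genes (up to 4 by lowest p) or, with none called, up to 2 with the lowest p were named, with Myh7, Tnni1 and Atp2a1 always; some were left out of the text. The 5 genes most like Myh2, Myh4 and the mean of the 10 were named by Pearson correlation. Genes such as Gapdh in single libraries, Ube2c, Myhas and 9430073C21Rik were added after their values were seen.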

Additional observations from a re-analysis of the deposited data

Results flagged for a closer look

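Outside muscle, single libraries held more transcript of the 10 genes than any control library of the same tissue. In liver 7 of the 10 genes are listed for the control libraries, where their summed FPKM was 0.844 to 1.86, and 9 for the PCOS arms. The sum was 2.22 in PCOS vehicle mouse 770, on 41 reads, 1.94 in roxadustat mouse 782, on 31 reads, and 55.7 in roxadustat mouse 808, on 2183 reads with all 9 listed genes detected. Over the same 7 genes as in control, the sum in mouse 808 was 48.3, and those of mice 770 and 782 were as given, since the other 2 genes are listed at 0 there. In WAT 9 of the 10 genes are listed in every arm, all but Tnnc2, and their sum in the control libraries ranged from 17.0 to 89.5. The sums were 183 and 175 in PCOS vehicle mice 773 and 770 and 197 and 173 in roxadustat mice 809 and 767. Dixon's criterion on FPKM, with a critical value of 0.829, flagged 0 of the 30 sets of 4 muscle values (10 genes in 3 arms), where chance gives about 1.5. It was not applied on the log2 scale of the fits. With 4 values it flags only a library very far from the other 3, so it cannot show that the mice of an arm were alike. No cause was tested for these values.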

How the results depend on the processing

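In the 51 alternative fits of the 3 comparisons, 0 of the 10 genes were called, and the lowest limma or voom adjusted p of a member over 510 values was 0.128, for Myh2 in roxadustat against control. Directions were less firm: 40 of the 510 estimates changed sign, none of them called in either setting. Scaling to total reads gave, in roxadustat against PCOS vehicle, 0.0199 for Myl1, 0.0242 for Tnni2 and 0.0021 for Actn3 (log2). Leaving out a pair of mice, chosen after seeing the data, gave without 773 and 767 0.25 for Myh1, 0.71 for Myh2, 0.0189 for Tnni2, 0.16 for Tnnc2 and -0.0409 for Pvalb in the same comparison. Without 802 and 773, PCOS vehicle against control gave -0.0275 for Tnnc2 and -0.0509 for Actn3. Without 802 and 767, roxadustat against control gave 0.11 for Myh1, -0.18 for Myh4, 0.13 for Tnnc2 and -0.20 for Actn3.

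Leaving out 1 mouse at a time turned the sign of some genes, with these ranges. In PCOS vehicle against control these were -0.0461 to 0.21 for Actn3 and -0.15 to 0.31 for Tnnc2. In roxadustat against PCOS vehicle they were -0.15 to 0.0859 for Actn3, -1.04 to 0.20 for Myh1, -1.38 to 0.36 for Myh2, -0.0700 to 0.10 for Myl1, -0.13 to 0.0839 for Mylpf, -0.0896 to 0.20 for Pvalb, -0.0742 to 0.10 for Tnni2 and -0.0390 to 0.14 for Tnnt3. In roxadustat against control they were -0.0799 to 0.18 for Actn3, -0.0923 to 0.17 for Myh4 and -0.46 to 0.0076 for Tnnc2. In the first comparison Tnni2 stayed between 0.39 and 0.50, Myl1 between 0.28 and 0.35 and Myh2 between -1.84 and -0.88. Over all genes, PCOS vehicle against control called 14 genes, 5 without the filter on low values, 6 to 22 with 1 mouse left out (lowest without control mouse 789, highest without mouse 770) and 3 without 802 and 773. Roxadustat against control called 47, 15 without the filter, 17 to 33 with 1 mouse left out (lowest without control mouse 804) and 75 without 802 and 767. For the 12 slow-fibre genes, a check chosen after seeing the data, leaving out 1 mouse gave median log2 differences of -0.29 to 0.41 in PCOS vehicle against control, -1.63 to -0.43 in roxadustat against PCOS vehicle and -1.19 to -0.43 in roxadustat against control, and 1 of the 12 genes, Myl2, was called in the last of these without roxadustat mouse 795 and none in the other such fits. No paired analysis was possible because no mouse is in 2 muscle arms. With 4 mice per arm the intervals of Myh2 in all 3 comparisons and of Myh1 in both with roxadustat span several fold, and Tnnc2 rests on 5 to 24 reads per library.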

Other observations

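In WAT 9 of the 10 genes are listed, all but Tnnc2, and their summed level was low in most libraries and higher in 5. In 10 of the 15 WAT libraries the summed level was 13.4 to 27.2 FPKM, and most of that was Myl1, the only one of the 10 with over 10 FPKM in every WAT library (11.5 to 39.6 FPKM). In the other 5 it was 89.5 FPKM in control mouse 789, 175 and 183 in PCOS vehicle mice 770 and 773 and 173 and 197 in roxadustat mice 767 and 809, with Tnnt3 and Pvalb among the highest, at 17.2 to 44.2 and 21.5 to 32.5 FPKM. The heavy chain mix of these libraries was not that of the muscle libraries. Myh1 made up 64.8, 73.4, 54.4 and 62.3% of the 3 fast heavy chains in WAT of mice 770, 773, 767 and 809, against 0.619 to 11.8% in the 12 muscle libraries. WAT of control mouse 789 had 96.1% Myh4, within the muscle range of 83.7 to 99.3%. In mouse 767, with 99.3% Myh4 in muscle, Myh4 was 23.5% in WAT. In the liver library of mouse 808 Myh1, Myh2 and Myh4 took 44.3, 24.5 and 31.2%, where muscle of that mouse had 3.57, 0.610 and 95.8%. The source of these transcripts was not tested.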
